A study of Mus musculus with 2 samples.

Results

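Npsr1 (ENSMUSG00000043659) encodes the neuropeptide S receptor and is 1 of the 53717 features counted in this series. It was chosen because earlier results of the same counts had it at 0 UMIs in NeuroD1-library oligodendrocytes and well above that in GFP-library ones, so its levels in the libraries are given as a description, without a test. A UMI is a molecular tag that counts 1 captured RNA molecule. After filtering, the NeuroD1 library had an Npsr1 UMI in 2 of 12786 cells, none of them oligodendrocyte-like. The GFP library had one in 321 of 11079 cells, of which 299 were oligodendrocyte-like.

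The receptor is a G protein-coupled receptor of the family that also holds the vasopressin and oxytocin receptors. Its ligand, neuropeptide S, is a short peptide made by small groups of brainstem neurons, and binding raises cytosolic calcium and cyclic AMP through Gq and Gs proteins. The system is known for arousal, reduced anxiety-like behaviour and memory, and the receptor is usually described in neurons. Oligodendrocytes are the glia that wrap axons in myelin.

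The cells came from the hippocampus of 5xFAD mice, which carry mutant human transgenes under the Thy1 promoter and form amyloid plaques. Mice of the NeuroD1 group had received AAV9-GFAP::NeuroD1-P2A-GFP, a vector that carries the neuronal transcription factor NeuroD1 with GFP under a promoter active mainly in astrocytes. Mice of the GFP group had received AAV9-GFAP::GFP, the same kind of vector with GFP alone, so both groups share the strain, the AAV9 capsid and GFP. Sampling was 3 weeks after injection with 3 mice in each group, per the series text, and the time field reads 6 months in each. Each group is 1 library, and whether the mice of a group were pooled into it is not stated in the labels. There is no mouse without a vector and none without the 5xFAD transgenes.

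The promoter of Npsr1 is shown because the data turn on whether this gene is transcribed in a cell class. The promoter of Dpy19l1 is shown beside it because Dpy19l1, which encodes a C-mannosyltransferase-like membrane protein, is the next protein-coding gene on the chromosome and also differed between the libraries. Both are the 250 bases before the RefSeq start on GRCm38.p6, at chr9:24097768-24098017 on the plus strand for Npsr1 and chr9:24503141-24503390 on the minus strand for Dpy19l1. The deposited counts were made on mm39, and no coordinate of that build is used here. Capitals mark the only match among the motifs searched.
Npsr1 promoter: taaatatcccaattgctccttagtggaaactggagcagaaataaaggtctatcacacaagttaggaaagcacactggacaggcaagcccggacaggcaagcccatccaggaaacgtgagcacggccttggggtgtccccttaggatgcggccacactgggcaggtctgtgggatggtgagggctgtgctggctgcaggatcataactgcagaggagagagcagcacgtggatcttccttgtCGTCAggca
Dpy19l1 promoter: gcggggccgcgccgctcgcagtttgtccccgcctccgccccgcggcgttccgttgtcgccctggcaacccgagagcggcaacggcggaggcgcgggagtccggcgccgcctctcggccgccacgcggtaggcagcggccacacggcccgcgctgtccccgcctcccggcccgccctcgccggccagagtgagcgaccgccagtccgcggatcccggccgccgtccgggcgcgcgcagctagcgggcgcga
The match is TGACG, the core of the cyclic AMP response element, read on the minus strand and starting at position -9, where -1 is the base before the start. The same letters occur on either strand in 17.8% of 32851 promoters of that length. The other motifs searched on both strands were TATAAA of the TATA box, ACAAAG and ACAATG of SOX factors, and CTGGCAC and CTGGTAC of the myelin factor MYRF. None of these was found in either window, and they occur in 12.4%, 16.5%, 10.7%, 4.19% and 1.83% of promoters. No motif overlapped another. G and C made up 54.8% of the Npsr1 window and 80.8% of the Dpy19l1 window, against a median of 52.4% over all promoters.

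The libraries stood apart in several ways that touch every value below. The NeuroD1 library held 13402 barcodes and 51236521 UMIs, the GFP library 11739 barcodes and 17504950 UMIs, and their kept cells had medians of 2556 and 1168 UMIs. They shared 99 barcodes. Xist, the RNA of the inactive X chromosome, had 0.0413 CPM in the NeuroD1 library against 103 CPM in the GFP library, where CPM is UMIs per 1000000 UMIs of the summed cells. The Y chromosome gene Ddx3y had 69.5 against 0.0618 CPM, so sex-linked RNA and the vector cannot be told apart. Oligodendrocyte-like cells were 3151 and 2271 cells with medians of 2938 and 1277 UMIs, and 14 of 17 listed oligodendrocyte markers had their highest CPM in this class in both libraries. The exceptions were Mbp, Ugt8a and Gjc3, which were highest in oligodendrocyte precursor-like cells of 1 or both libraries. The class was made of 2 clusters found without Npsr1: cluster 0 held 2896 and 224 cells, and cluster 2 held 255 and 2047. Intervals in what follows are 95% intervals that cover counting error only, since cells of 1 library are not replicates.

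Npsr1 was absent from the counts of oligodendrocyte-like cells in the NeuroD1 library and present in those of the GFP library. The sums were 0 UMIs in 10491612 UMIs of the NeuroD1 class and 378 UMIs in the GFP class. These are 0 CPM with an upper limit of 0.352 CPM and 115 CPM with an interval of 104 to 127 CPM. Against a floor of 3 UMIs over the class, which is 0.286 CPM, Npsr1 was at least 402.5-fold lower in the NeuroD1 library, and the exact interval of the ratio ends at 326-fold lower. At the GFP library's rate the NeuroD1 class would have held 1208 UMIs. Cells with an Npsr1 UMI were 0 of 3151 in the NeuroD1 class, a share with a floor of 0.0952% at 3 cells and an exact upper limit of 0.117%, and 299 of 2271 in the GFP class, 13.2% with an interval of 11.8 to 14.6%. These are shares of cells with a UMI, and a cell without one may still hold the RNA. With every cell thinned to 500 UMIs, which left out no cell, the shares were 0% and 4.76%.

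Both oligodendrocyte-like clusters showed it. In cluster 0, which is led by Mobp, Mbp and Cldn11 and holds most oligodendrocyte-like cells of the NeuroD1 library, Npsr1 had 0 UMIs in the NeuroD1 library. It had 59 UMIs in GFP-library cells of cluster 0, at 120 CPM (91.3 to 155) and in 19.2% of cells. In cluster 2, where Npsr1 itself was among the leading genes together with Gstp1 and C4b, it had 0 UMIs in NeuroD1-library cells against 319 UMIs in GFP-library cells, the GFP value being 114 CPM (102 to 128) and in 12.5% of cells. The GFP library's levels in its 2 clusters overlapped within their intervals. Against the same floor of 3 UMIs Npsr1 was at least 403-fold lower in NeuroD1-library cells of cluster 0, and the exact interval ends at 318-fold. In cluster 2, where 255 cells of the NeuroD1 library put the floor at 7.55 CPM, it was at least 15.1-fold lower, and the interval ends at 12.2-fold.

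Values that move with the library in the same class were as follows. Mitochondrial UMIs made up 2.78% of the NeuroD1 class sum and 4.95% of the GFP class sum, and haemoglobin UMIs 0.0645% and 0.000518%. The 15 microglia markers together had 1.56 and 15.3 UMIs per 10000, the 15 astrocyte markers 6.61 and 8.75, the 13 neuron markers 0.198 and 0.408, and the 11 choroid plexus epithelium markers 125 and 67.9. The 17 oligodendrocyte markers had 940 and 909 UMIs per 10000. Vector GFP was at 4.48 and 127 CPM. Of 12149 genes measured in the class, 1455 (12%) were higher in the NeuroD1 library by 1.5-fold or more and 1880 (15.5%) lower by as much. Among the gene lists, interferon response genes had 0 higher and 19 lower of 21, with a median log2 ratio of -2.79. Class I antigen presentation had 0 higher and 12 lower of 15 (median -2.13), and cholesterol synthesis 16 higher and 0 lower of 24 (median 0.70). Their part in the Npsr1 difference was not tested.

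**Figure D1:**
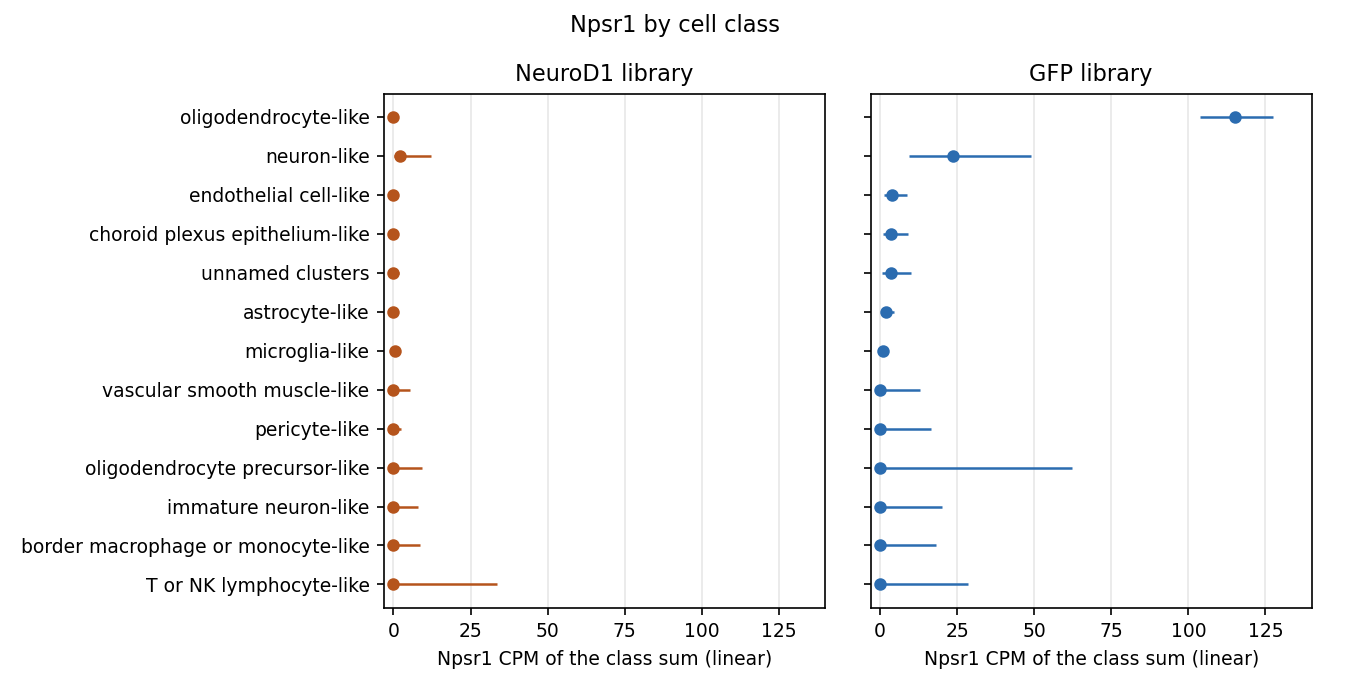
Npsr1 level (horizontal axis, CPM of the class sum, linear) by cell class (rows), NeuroD1 library on the left and GFP library on the right. Rows are the classes with at least 30 cells in the GFP library, the same on both sides. Fibroblast-like and ependymal cell-like cells are therefore not drawn for either library. Points are the level and lines its 95% Poisson interval, counting error only. Oligodendrocyte-like cells of the GFP library stand at 115 CPM and those of the NeuroD1 library at 0.

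Across cell classes of the GFP library the order of levels put oligodendrocyte-like cells first, with 92.6% of all Npsr1 UMIs in kept cells. Neuron-like cells followed at 23.7 CPM (9.55 to 48.9; 7 UMIs). A single UMI in 28 fibroblast-like cells gave 22.8 CPM with an interval of 0.578 to 127. Endothelial cell-like cells were at 3.82 CPM (1.24 to 8.91; 5 UMIs), choroid plexus epithelium-like cells at 3.56 CPM (0.969 to 9.10; 4 UMIs) and unnamed clusters at 3.42 CPM (0.706 to 10.0; 3 UMIs). Astrocyte-like cells, where the vector promoter is active, were at 1.95 CPM (0.633 to 4.55; 5 UMIs), and microglia-like cells at 0.895 CPM (0.291 to 2.09; 5 UMIs). All other classes were at 0 UMIs. The intervals of oligodendrocyte-like and neuron-like cells did not overlap, that of the fibroblast-like class overlapped both, and every other neighbouring pair in the order overlapped.

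Oligodendrocyte precursors, the cells from which oligodendrocytes arise, had 0 Npsr1 UMIs in both libraries, over 112 NeuroD1-library and 35 GFP-library cells. So few cells allow up to 9.41 CPM in the NeuroD1 library and up to 62.4 CPM in the GFP library, which is below the 104 CPM at the lower end of the GFP library's oligodendrocyte-like interval. Microglia-like cells, which should lack the receptor, had an Npsr1 UMI in 0.110% of 3651 cells at a median of 1317 UMIs, against 13.2% in oligodendrocyte-like cells at a median of 1277 UMIs. The oligodendrocyte-like share is thus above the level found in this class at a like depth.

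The neuron-like UMIs all lay in cluster 22, excitatory neuron-like cells led by Thy1 and Slc17a7. Its 125 cells in the GFP library held 7 Npsr1 UMIs in 4 cells, with 4 of the UMIs in a single cell, at 33.3 CPM (13.4 to 68.6). In the NeuroD1 library 7 cells of cluster 22 held 1 Npsr1 UMI, in a cell with 10155 UMIs, and the only other Npsr1 UMI of that library was in a microglia-like cell with 1379 UMIs. Cluster 16, neuron-like cells led by Reln, had 0 Npsr1 UMIs in both libraries.

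Within the GFP library the receptor RNA was spread over many oligodendrocyte-like cells and was not held by a few. Of the 2271 cells, 237 had 1 UMI, 49 had 2, 10 had 3, 2 had 4 and 1 had 5. The 10 cells with most UMIs held 34 of the 378, or 8.99%. If every cell had drawn Npsr1 at a shared rate given its depth, 341 cells would have had at least 1 UMI and 33.6 at least 2, against 299 and 62 observed. The excess of cells with 2 or more UMIs was 1.85-fold, and the variance over the mean was 1.37, against 1.05 at the shared rate. Most genes of like abundance showed an excess too: among 629 genes with 303 to 453 UMIs in these cells, it had a median of 1.64-fold and ran from 1.31-fold to 2.09-fold over the middle 90% of them, and 78.2% of these genes lay below Npsr1.

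**Figure D2:**
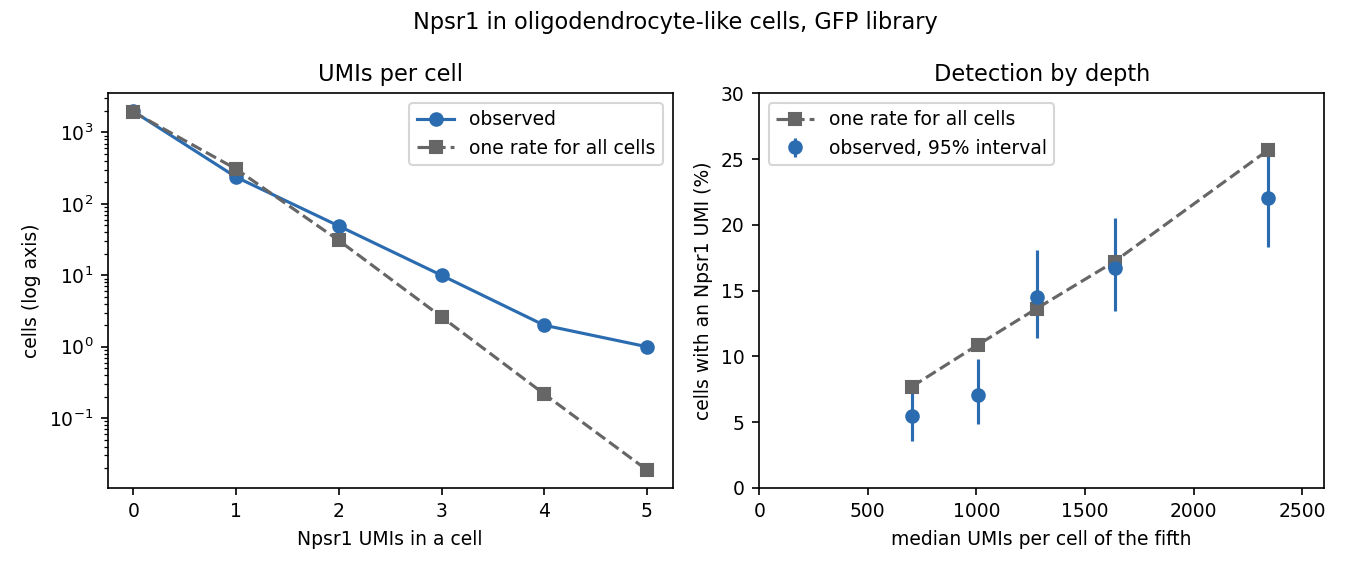
Oligodendrocyte-like cells of the GFP library. Left, number of cells (log axis) by Npsr1 UMIs per cell, observed (circles) and with a rate shared by all cells given their depth (squares); right, share of cells with an Npsr1 UMI (circles, 95% Clopper-Pearson interval) in 5 equal bins of the cells ordered by UMIs per cell. The share is 5.49% in the shallowest and 22.03% in the deepest bin, and 62 cells have 2 or more UMIs, against 33.6 at the shared rate.

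Detection followed depth. In 5 equal bins of the GFP library's oligodendrocyte-like cells, ordered from shallow to deep with median UMIs of 703, 1007.5, 1277, 1635.5 and 2343, the share with an Npsr1 UMI was 5.49%, 7.05%, 14.5%, 16.7% and 22.03%. A shared rate would give 7.70%, 10.9%, 13.6%, 17.2% and 25.7%. The level in the same bins was 97.7, 83.5, 140, 125 and 114 CPM, and the intervals of neighbouring bins overlapped in every pair.

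Sub-clusters of these cells had like levels. Clustered on their own, again without Npsr1, the GFP library's oligodendrocyte-like cells gave 3 groups. The largest, 1421 cells led by Adamts1, Sema6d and Unc5b, had 169 Npsr1 UMIs at 111 CPM (94.8 to 129). A group of 830 cells led by S100b, Klk6 and Enpp6 had 207 UMIs at 120 CPM (104 to 138). The shares of cells with a UMI were 9.71% and 19.2%, at medians of 1029 and 1882 UMIs per cell. The 20 cells of the smallest group, led by the interferon-response genes Ifit3 and Ifit3b, had 2 UMIs at 51.6 CPM (6.25 to 186).

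Cells with a UMI of complement C4b or the protease inhibitor Serpina3n, which mark a disease-associated state of oligodendrocytes in amyloid models, had Npsr1 at 101 CPM (87.1 to 117; 1122 cells). The 1149 cells without either were at 131 CPM (114 to 151). The intervals overlapped only between 114 and 117 CPM, and overlap of intervals does not show equal levels. No interval of the ratio was taken for this split. Cells with and without a vector GFP UMI were at 133 and 113 CPM, and those with and without a Ptgds UMI, the prostaglandin D synthase RNA of mature oligodendrocytes, at 117 and 85.2 CPM. Both pairs of intervals overlapped.

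Npsr1-positive cells were then set against Npsr1-negative oligodendrocyte-like cells of the same library. The 299 positive cells, those with at least 1 UMI, had a median of 1612 UMIs. Each was matched to 3 negative cells of the nearest depth, which gave 897 cells with a median of 1611 UMIs. Mitochondrial UMIs had medians of 4.48% and 4.55%, and cluster 2 held 85.6% and 86.5% of the cells. Microglia markers together had 14.8 UMIs per 10000 in both sets, and choroid plexus epithelium markers 63.1 and 67.2. Detection of 1 UMI separates the sets only in part, since a negative cell of this depth can hold the RNA uncaptured.

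The positive and matched negative cells had close levels of most genes. Of 8027 genes with at least 20 UMIs in both sets together, 754 (9.39%) were higher in positive cells by 1.5-fold or more and 820 (10.2%) lower by as much, and the median log2 ratio was 0.01. None of the 27 myelin genes was past 1.5-fold in either direction, and their median log2 ratio was -0.06 (order-statistic interval -0.14 to -0.01). The interval of the ratio lay below 1 for 8 of the 27 and above 1 for 2. Among 4086 genes with at least 50 UMIs, 4.16% had an interval below 1 and 4.26% above it. Myelin genes hold many UMIs, so their intervals can leave out 1 at small differences. Mbp, with 3465 and 10850 UMIs, had a ratio of 0.941 (0.906 to 0.978). These counts of intervals, here and for the next list, therefore do not show a shift of the list. Mog, a surface protein of the outer myelin sheath, was at 1755 CPM in positive cells and 1964 CPM in matched negative cells. Its ratio was 0.893 (0.829 to 0.962). The 20 measured late mature oligodendrocyte genes had a median of 0.01 with 0 past 1.5-fold, 5 with an interval above 1 and 1 below it. Of 9 measured newly formed oligodendrocyte genes 1 was higher and 0 were lower, with a median of -0.07.

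Genes of receptor signalling were read next, because the receptor acts through Gq and Gs. Of 37 listed genes of G protein, cyclic AMP and calcium signalling 16 were measured, with a median log2 ratio of 0.10 (-0.38 to 0.22), 1 higher and 2 lower. The G protein subunit Gnas, the Gs alpha chain, was at 380 CPM in positive cells and 413 CPM in matched negative cells, a ratio of 0.920 (0.781 to 1.08). Gnaq, the Gq alpha chain, was at 30.3 and 30.1 CPM, with an interval of the ratio from 0.531 to 1.80. Gna11, a close relative of Gnaq, was at 24.6 and 48.1 CPM (13 and 75 UMIs), and Pde4a, a cyclic AMP phosphodiesterase, at 7.56 and 21.8 CPM (4 and 34 UMIs). Of 22 listed G protein-coupled receptors of oligodendrocytes 11 were measured, with a median of 0.13 (-0.09 to 0.45), 1 higher and 0 lower. Gpr37, an orphan receptor of myelinating cells, was at 1101 CPM in positive cells and 1155 CPM in matched negative cells. The immediate early genes, which respond to receptor stimulation and also to dissociation, had a median of 0.02 with 1 higher and 2 lower of 20.

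Immune and stress lists had medians between -0.17 and 0.03. Their counts past 1.5-fold stand beside shares of 9.39% higher and 10.2% lower over all 8027 genes. For genes of disease-associated oligodendrocytes the median was -0.09 (-0.24 to 0.20), and 1 of 21 was higher and 1 lower. Its lower member, Serpina3n, was at 62.4 CPM in positive cells and 109 CPM in matched negative cells (33 and 170 UMIs), 1.75-fold lower with an interval of 1.198 to 2.62. C4b was at 703 and 832 CPM, a ratio of 0.846 (0.751 to 0.9496). The interferon response list had a median of -0.17 (-0.51 to 0.08) with 0 higher and 3 lower of 15, or a median of -0.37 when CPM was averaged over cells. Ifit3 was at 13.2 and 45.5 CPM (7 and 71 UMIs), and class I antigen presentation had -0.09 with 0 of 11 past 1.5-fold. Of 19 cholesterol synthesis genes 2 were higher, among them Hmgcs1 at 149 and 93.6 CPM, and 4 were lower, with a median of -0.07. Glutathione transferases and peroxidases had a median of -0.01, with 1 higher and 1 lower of 15. Mitochondrially encoded genes had -0.02 with 0 of 8 past 1.5-fold, and ribosomal protein genes 0.03 with 3 higher and 0 lower of 38.

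**Figure D3:**
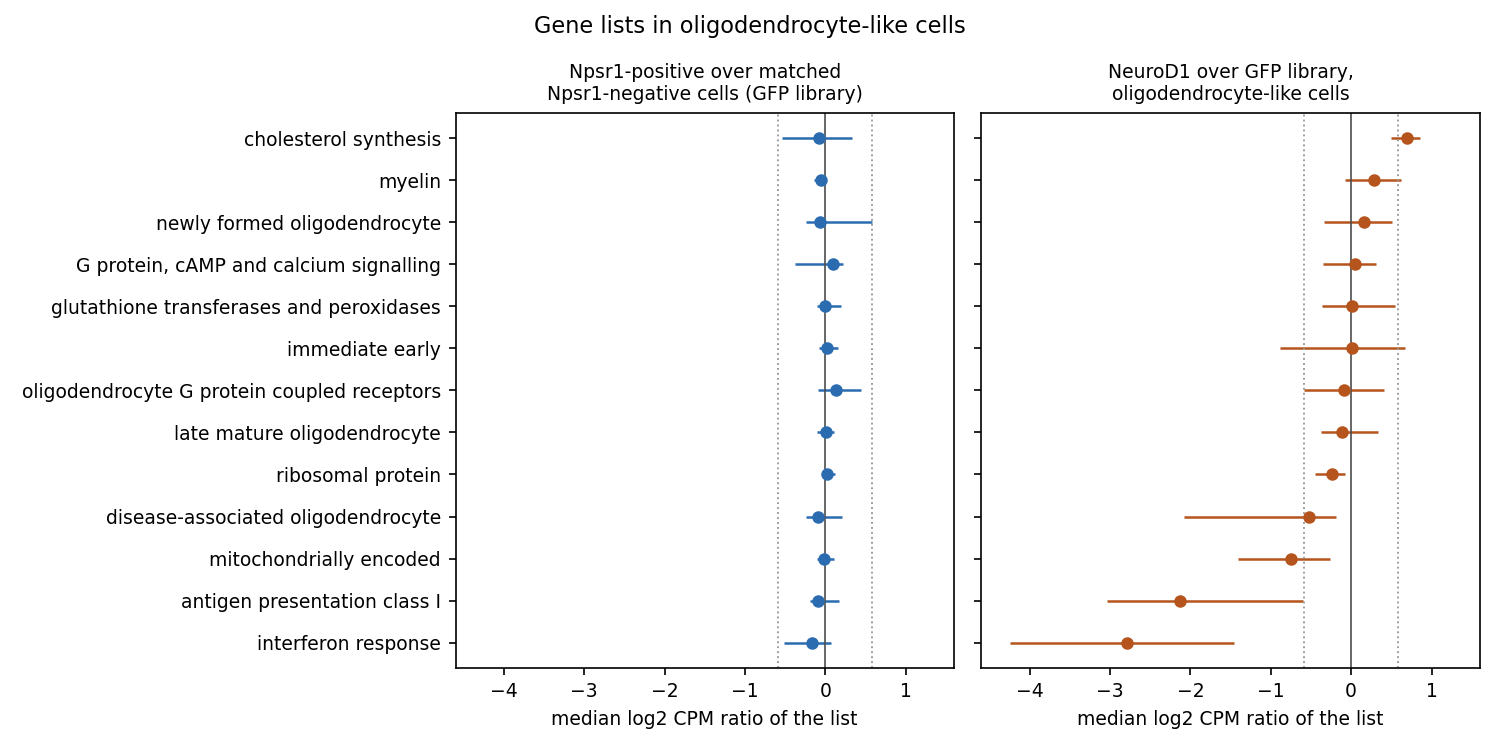
Median log2 CPM ratio of each gene list (points) with the order-statistic interval of the median over its measured members (lines); dotted lines mark 1.5-fold. Left, Npsr1-positive over matched Npsr1-negative oligodendrocyte-like cells of the GFP library; right, oligodendrocyte-like cells of the NeuroD1 over the GFP library. The left medians lie between -0.17 and 0.13, while on the right they run from -2.79 for interferon response to 0.70 for cholesterol synthesis.

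Most single genes had an interval of the ratio that held 1. The genes read were 4086 with at least 50 UMIs over the 2 sets summed and at least 25% of the highest class level. Of these, 174 had an interval above 1 and 170 an interval below it, together 8.42%. By its definition an interval of this kind leaves out an unchanged ratio for up to 5% of genes. In simulated Poisson sums it held the true ratio for 96.5% of 5077 unchanged genes. The observed share was thus above both. The genes named here are the extremes of the 4086 by rule, and UMIs that crowd in a few cells make their intervals too narrow. Med25, a Mediator subunit, was at 96.4 CPM in positive cells and 44.9 CPM in matched negative cells, a ratio of 2.15 (1.47 to 3.13). Abcg1, a sterol exporter, was at 79.4 and 36.6 CPM, a ratio of 2.17 (1.42 to 3.29). Mid1ip1, a regulator of fatty acid synthesis, was at 700 and 482 CPM, a ratio of 1.45 (1.28 to 1.65). The apoptosis inhibitor Aven, the endosomal sorting protein Snx17, Preb, Strn3, the transcription factor Zbtb20, Serpind1 and the histone demethylase Kdm6a completed the 10 highest, with ratios of 1.69 to 2.27. Preb, at the top of that range with 27 and 35 UMIs, was detected in 3.34% of positive and 3.46% of matched negative cells, so its ratio rests on several UMIs per detected cell. Among the 10 lowest, Trappc4, part of a vesicle tethering complex, was at 85.1 CPM in positive cells and 163 CPM in matched negative cells, 1.91-fold lower (1.39 to 2.69). Dcaf13, Dlk2, Fsd1, Ddx56, Prickle2, Skap2, Ogfod2 and Cnot4 were 2.03-fold to 3.32-fold lower on 5 to 21 UMIs in the positive cells.

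The neighbours of Npsr1 on its chromosome were examined in oligodendrocyte-like cells, in the gene order of RefSeq on GRCm38.p6. Dpy19l1, the next protein-coding gene after Npsr1, had 1755 UMIs (167 CPM) in NeuroD1-library cells against 1514 UMIs (461 CPM) in GFP-library cells, and was 2.76-fold lower (2.57 to 2.95). The point values of the other measured neighbours were within 1.5-fold, though the interval of Bbs9 ran past it. Anln, an actin-binding protein of the myelin septin scaffold, was at 321 and 317 CPM, a ratio of 1.01 (0.942 to 1.08). Rp9, a splicing-related gene, was at 45.2 and 49.6 CPM, a ratio of 0.910 (0.760 to 1.09). Bbs9, a part of the ciliary BBSome, was at 6.77 and 10.0 CPM, 1.48-fold lower (0.951 to 2.27). Herpud2 was at 55.8 and 45.4 CPM, a ratio of 1.23 (1.02 to 1.48). Zfp810 had 16 and 2 UMIs and Bmper 0 and 2 UMIs, while Dpy19l2, Cypt4 and Tbx20 had 0 UMIs in both. Gm15600 and Gm47674, which overlap Npsr1 on the opposite strand, had 1 and 0 UMIs in the NeuroD1 class and 0 and 0 UMIs in the GFP class. The labels do not say whether the counting used strand.

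Dpy19l1 was lower in both oligodendrocyte-like clusters. It was 2.39-fold lower in the NeuroD1 library in cluster 0 (2.05 to 2.77), where 19.6% of genes were higher by 1.5-fold or more and 19.6% lower by as much. It was 2.35-fold lower in cluster 2 (1.87 to 2.98), where the shares of genes higher and lower by as much were 17.7% and 17.6%. The other classes had a range of folds. Pericyte-like cells of the NeuroD1 library had Dpy19l1 3.33-fold lower (1.15 to 8.67), immature neuron-like cells 2.77-fold (1.07 to 7.28), neuron-like cells 2.42-fold (1.29 to 4.65) and choroid plexus epithelium-like cells 1.96-fold (1.19 to 3.10), and these intervals hold the oligodendrocyte-like fold of 2.76. Astrocyte-like cells had 10.2 CPM in NeuroD1-library and 20.7 CPM in GFP-library cells, 2.03-fold lower (1.43 to 2.84), and this interval also holds 2.76. Microglia-like cells had 33.1 and 38.7 CPM (1.17-fold lower, 0.903 to 1.52) and endothelial cell-like cells 32.0 and 32.8 CPM (1.03-fold lower, 0.717 to 1.44). Between cells of the GFP library, Dpy19l1 was at 401 CPM in Npsr1-positive cells and 461 CPM in matched negative cells, a ratio of 0.869 (0.742 to 1.01). Npsr1 was at 104 CPM in cells with a Dpy19l1 UMI and 126 CPM in cells without one.

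**Figure D4:**
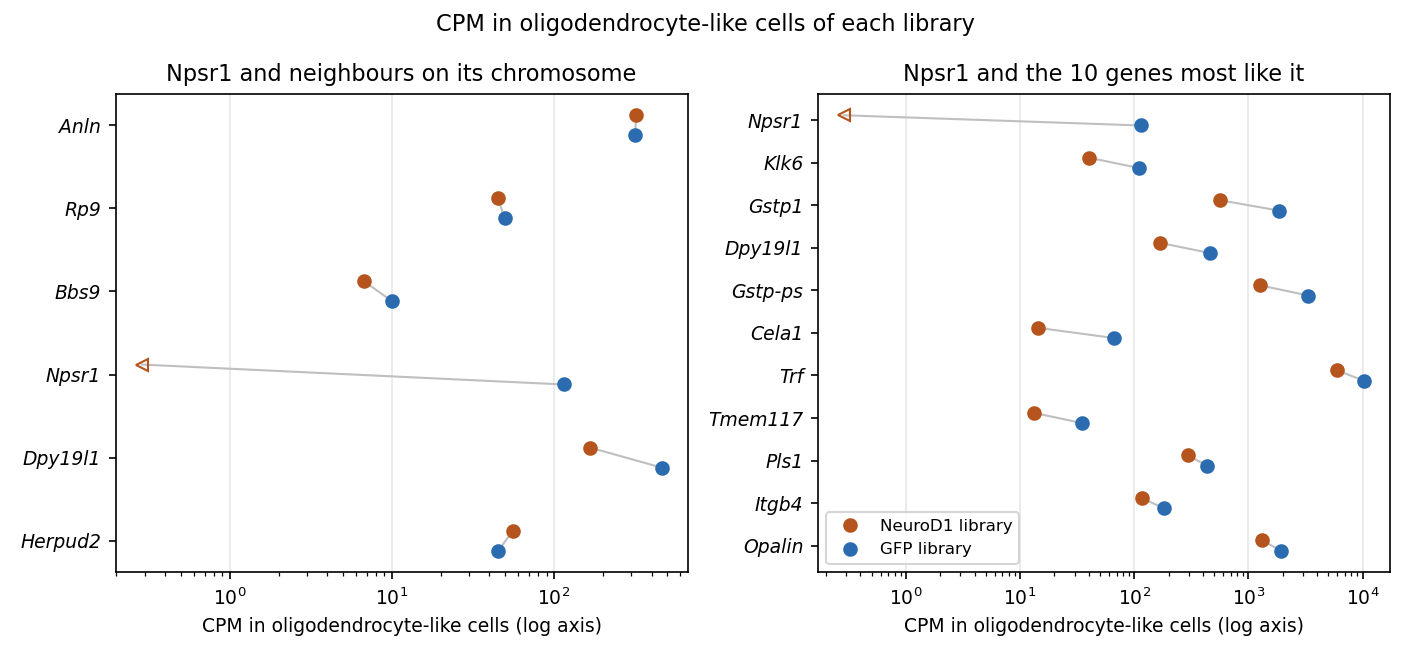
CPM in oligodendrocyte-like cells (log axis) of the NeuroD1 library (upper point of each row) and the GFP library (lower point). Left, Npsr1 and those neighbours whose 2 sums held 20 UMIs or more, in chromosome order; right, Npsr1 and the 10 genes most like it over class sums. The open triangle is the floor of 3 UMIs for Npsr1 in the NeuroD1 library, 0.286 CPM, against 115 CPM in the GFP library.

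The genes whose levels were most like those of Npsr1 were sought over 28 sums of class by library with at least 30 cells, among 4118 genes with at least 100 UMIs in the GFP library's oligodendrocyte-like cells. Likeness was the cosine of CPM, which is 1 for proportional levels. Klk6, a serine protease, came first at 0.918, with 40.4 CPM in NeuroD1-library and 109.9 CPM in GFP-library oligodendrocyte-like cells. Gstp1, a glutathione transferase, followed at 0.914 with 569 and 1839 CPM, then Dpy19l1 at 0.893 and Gstp-ps at 0.883, a pseudogene copy that shares sequence with Gstp1 and is therefore uncertain. Cela1, an elastase-like protease, was at 0.850 with 14.4 and 67.0 CPM. The iron carrier transferrin, Trf, Tmem117, the actin bundler Pls1, the integrin Itgb4 and the oligodendrocyte membrane protein Opalin had cosines of 0.829 to 0.809. All 10 were lower in the NeuroD1 library, by 1.46-fold to 4.65-fold, and each had 139 or more UMIs in that library's class, against 0 for Npsr1. Since nearly all Npsr1 UMIs lie in 1 class of 1 library, likeness here mostly measures being high in that sum.

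Within the GFP library's oligodendrocyte-like cells these genes had no shared direction in Npsr1-positive cells. Klk6 was at 90.8 CPM in Npsr1-positive cells and 126 CPM in matched negative cells, a ratio of 0.718 (0.513 to 0.989). Opalin was at 1638 and 1978 CPM, a ratio of 0.828 (0.767 to 0.893), and Trf at 11209 and 10673 CPM, a ratio of 1.05 (1.02 to 1.08). The intervals of the other 7 held 1.

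The ligand and the related receptors were looked for last. Nps, which encodes the neuropeptide S precursor, had 0 UMIs in the kept cells of both libraries. The brainstem neurons that make the peptide lie outside the hippocampus, so this count cannot show whether the ligand reaches these cells. The receptors nearest in family, Avpr1a, Avpr1b and Avpr2 for vasopressin, Oxtr for oxytocin and Gnrhr for gonadotropin-releasing hormone, each had 0 UMIs in oligodendrocyte-like cells of both libraries. Of 41 listed neuropeptide receptors other than Npsr1, 9 had any UMI in NeuroD1-library and 7 in GFP-library oligodendrocyte-like cells. Those with at least 20 UMIs were 2 and 1: Ntsr2, a neurotensin receptor with 439 and 125 UMIs that had its highest CPM in astrocyte-like cells, and Adcyap1r1, the PACAP receptor, with 24 and 17 UMIs. Over the same libraries the G protein, cyclic AMP and calcium list had a median log2 ratio of 0.05 (-0.36 to 0.31), with 3 higher and 4 lower of 29 members, near the 12% and 15.5% over all genes. The oligodendrocyte G protein-coupled receptor list had -0.09 (-0.58 to 0.40), with 2 higher and 3 lower of 15. The median over all genes was 0.03. Gnas was at 444 CPM in NeuroD1-library cells against 419 CPM in GFP-library cells, Gnaq at 31.9 and 32.9 CPM, and the catalytic protein kinase A subunit Prkacb at 186 and 108 CPM, a ratio of 1.72 (1.54 to 1.93). Itpr2, a calcium release channel, was at 12.8 and 34.4 CPM, 2.69-fold lower. Both list comparisons use the GFP library's oligodendrocyte-like cells, so they are given side by side and not set against each other.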

How the data were processed

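Single-cell RNA was counted in 2 libraries of 5xFAD hippocampus, 1 per group. Per the labels' protocols, tissue was dissociated with papain and cells were isolated in a SCOPE-chip, although the description field names 10x Genomics. The deposited UMI counts are whole numbers per gene and barcode. Build mm39 and the tools STAR, featureCounts, fastp, cutadapt and FastQC are listed without versions, per the submitters' processing notes, and no source here gives the annotation release. Cells had at least 500 UMIs as deposited. Filters of 200 genes at the least and 20% mitochondrial UMIs at the most took out 131 NeuroD1-library and 104 GFP-library barcodes, and Scrublet called a further 485 (3.65%) and 556 (4.78%) as doublets, which were left out. Joint Leiden clustering in scanpy 1.11.5 (3000 variable genes without Npsr1, 30 components, 15 neighbours, resolution 1) gave clusters named X-like from marker lists, with at least 3 markers among the 50 leading genes.

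With 1 library per group no test between groups was made. CPM was taken on class sums with exact Poisson intervals, ratios with exact conditional binomial intervals and shares with Clopper-Pearson intervals, all at 95%. Log2 ratios had 0.5 UMI added to each sum. List members were measured where both sums together held at least 20 UMIs. Named genes were Npsr1, list members, 5 protein-coding neighbours on each side, the 10 most like genes, and the 10 highest and 10 lowest genes of positive over matched negative cells, by the interval end nearest to 1. The last 2 rules left out Gm- and Rik-named, sex-linked, haemoglobin, ribosomal protein and mitochondrial genes; Xist, Ddx3y, Gm15600 and Gm47674 were named as checks. Some genes that these rules allow are not reported here. The member and the lists were chosen with earlier results of these data known. Sequences are RefSeq's on GRCm38.p6, matched by symbol for both genes searched. Ratio intervals were tried on simulated Poisson sums, and held the true ratio for 96.5% of unchanged genes and 94% of changed ones. Those sums had no crowding of UMIs in a few cells, so the trial does not cover that case. Depth matching was tried on simulated depths. Other versions were scipy 1.17.1, leidenalg 0.10.2, pandas 2.3.3, numpy 2.4.6, matplotlib 3.10.9 and Python 3.11.15.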

Additional observations from a re-analysis of the deposited data

Results flagged for a closer look

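Npsr1 was also counted in barcodes that the reported comparisons leave out and the alternative with doublets kept takes in. Called doublets of the GFP library held 37 Npsr1 UMIs, at 30.4 CPM in 33 of 556 barcodes, while the 485 called doublets of the NeuroD1 library held 0.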

How the results depend on the processing

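Npsr1 stayed at 0 UMIs in oligodendrocyte-like cells of the NeuroD1 library under each of the 4 class and filter alternatives, and its GFP-library level was between 105 and 117 CPM under 6 alternatives, the lowest without the 10 cells with most Npsr1 UMIs. The share of the GFP library's oligodendrocyte-like cells with the RNA was 13.2% as reported, 4.76% thinned to 500 UMIs and 2.73% with at least 2 UMIs required. With positive cells defined by at least 2 UMIs, 504 of 3782 genes (13.3%) were at least 1.5-fold higher and 532 (14.1%) lower. With a floor of 5 UMIs, 1848 of 11529 genes were higher and 1791 lower. The immediate early median of 0.02 was -0.084 against all negatives and -0.22 with at least 2 UMIs. The interferon median of -0.17 ran from -0.37 as a mean over cells to -0.086 with doublets kept, and the cholesterol median of -0.07 from -0.23 as a mean over cells to -0.035 with a floor of 5 UMIs. With 1 matched negative per positive cell the G protein list was at 0.24 and the late mature list at 0.12. The cause of these changes was not tested. Of 13 lists, 10 had enough members to be measured with at least 2 UMIs. All 20 genes picked by the rule from positive over negative cells kept their direction under 7 alternatives, with 15 to 20 of them past 1.5-fold. No paired analysis was possible because the groups share only replicate number 1. Npsr1's low counts limit the class order, the precursor cells and every split of positive cells.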
